A study of Mus musculus with 8 samples.

Results

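The alcohol and aldehyde dehydrogenases described here are 10 genes, Adh1, Adh5, Adh7, Aldh2, Aldh3a1, Aldh3a2, Aldh3b1, Aldh3b2, Aldh7a1 and Aldh9a1. They were taken by symbol from a table of raw counts for 55276 gene symbols, and all 10 were found and passed the filter on low counts. The libraries came from the esophageal epithelium of C57BL6 mice aged 14 to 15 weeks, for which the labels name no genetic change and no drug. Live cells that carried integrin-b1 and excluded DAPI were sorted by the dye Cyto-ID, which accumulates in autophagic vesicles, into a fraction with little dye (Cyto-ID Low) and a fraction with much dye (Cyto-ID High). Animals Female1, Female2, Male1 and Male2 each gave 1 library of each fraction, so that there were 4 libraries per fraction and 8 in all, with 26285150 to 29301054 counts. RNA was measured in bulk, and fewer cells of a type cannot be told apart from less RNA per cell.

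Alcohol dehydrogenases oxidise alcohols, ethanol and retinol among them, to aldehydes with NAD+, and aldehyde dehydrogenases oxidise aldehydes on to carboxylic acids. In the squamous lining of the upper digestive tract these enzymes meet ethanol and acetaldehyde from the lumen as well as aldehydes made inside the cell by lipid peroxidation, sphingolipid breakdown and amino acid metabolism. Adh1 encodes the class I enzyme that dominates in liver, Adh7 the class IV enzyme of stomach and esophagus, and Adh5 the widely expressed class III enzyme that oxidises the glutathione adduct of formaldehyde.

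Both fractions were checked against markers of the tissue. The summed level of 9 basal keratinocyte markers was 21971 to 26274 CPM (counts relative to library size, here with edgeR's TMM factors) in Low and 2788 to 4496 in High, and that of 9 suprabasal markers was 8674 to 26174 in Low and 147490 to 247810 in High, so both squamous programmes were present in each fraction in different proportions. Fibroblast markers (7 genes) summed to 314 to 497 CPM in Low. In High the 4 animals, in the order above, had fibroblast sums of 463, 149, 329 and 38.4. Summed markers of gastric epithelium (11 genes) stood at 19.1 CPM in Low and 116 in High in Female2, and at most at 1.44 in the libraries of the other animals. Endothelial markers (6 genes) summed to 1.44 to 25.5 CPM over the 8 libraries, muscle markers (7 genes) to 4.99 to 56.8 and leukocyte markers (6 genes) to 24.3 to 94.5.

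The 3 alcohol dehydrogenases lie on mouse chromosome 3 (build GRCm38), head to tail on the plus strand, in a cluster of 6 genes that spans 237.74 kb. Adh7 (138217760 to 138233382) comes first, Adh1 (138260991 to 138290698) follows after 27.6 kb, then come Adh6a, Adh6b and Adh4, and Adh5 (138443093 to 138455499) is last. These neighbours had a different course in the sorted fractions, and their promoters are shown for that reason, each as 250 bases before and 50 after the start of a RefSeq transcript (GRCm38.p6, plus strand, 5′ to 3′). Capitals mark the motifs searched on both strands: GGGCGG (the GC box), TGAGTCA (the AP-1 element), CACGTG (an E-box), TATAAA and TGACNNNGC (the core of the antioxidant response element).
Adh7, chr3:138217523-138217822: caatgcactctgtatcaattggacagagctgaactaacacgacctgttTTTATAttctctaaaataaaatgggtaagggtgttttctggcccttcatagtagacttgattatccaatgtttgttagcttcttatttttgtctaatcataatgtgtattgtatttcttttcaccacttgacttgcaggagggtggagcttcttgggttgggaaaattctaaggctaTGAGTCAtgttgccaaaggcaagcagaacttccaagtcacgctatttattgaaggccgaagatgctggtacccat
Adh1, chr3:138277335-138277634: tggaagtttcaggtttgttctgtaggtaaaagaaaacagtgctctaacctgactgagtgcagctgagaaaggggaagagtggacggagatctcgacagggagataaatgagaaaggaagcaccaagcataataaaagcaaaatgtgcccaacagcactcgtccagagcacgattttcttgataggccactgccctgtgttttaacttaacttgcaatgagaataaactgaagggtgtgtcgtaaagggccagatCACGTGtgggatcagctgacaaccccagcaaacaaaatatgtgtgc
Adh5, chr3:138442843-138443142: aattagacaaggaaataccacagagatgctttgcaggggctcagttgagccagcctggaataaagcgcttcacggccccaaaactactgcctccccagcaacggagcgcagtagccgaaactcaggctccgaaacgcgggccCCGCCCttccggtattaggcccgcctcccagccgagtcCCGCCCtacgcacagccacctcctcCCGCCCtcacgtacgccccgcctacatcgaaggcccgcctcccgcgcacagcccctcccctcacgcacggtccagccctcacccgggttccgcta

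The promoters of Adh7 and Adh1 held 3 and 6 CpG dinucleotides, where the median of all promoters was 7, and that of Adh5 held 26, more than 83.1% of the 32851 promoters of the same length. Adh5 held the GC box 3 times, always on the other strand, a motif found in 35.7% of all promoters. Adh7 held the AP-1 element once, beginning at base 226 of the 300, where 5.2% of all promoters hold it, and TATAAA once, on the other strand. The E-box of Adh1 began at base 255 of the 300, after the start site, and 7.15% of promoters hold this motif. Of the 3, none held TGACNNNGC, which was found in 12.4%. RefSeq lists a second start for Adh5, chr3:138436950-138437249, with 3 CpG dinucleotides and 1 TATAAA. GENCODE begins Adh1 at 138260991, upstream of the RefSeq start used here, so the printed Adh1 sequence lies within the GENCODE gene. A match is only a description of the letters.

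The transcript of Adh1 rose 10.2-fold from Cyto-ID Low to Cyto-ID High, that of Adh5 fell, and that of Adh7, by far the most abundant of the 3, did not pass the test. Adh1 stood at 3.09, 6.46, 2.67 and 12.4 CPM in the Low libraries of Female1, Female2, Male1 and Male2, and at 39.7, 65.9, 44.8 and 99.3 in their High libraries. Every High library lay above every Low library, and Male2 was highest in both fractions. The log2 fold change was 3.35 (SE 0.48), with an adjusted p of 0.000346 by edgeR's quasi-likelihood test. Fibroblasts can also express Adh1. Male2, with the highest Adh1 in both fractions, had the highest fibroblast sum of the Low libraries (497 CPM) and the lowest of the High libraries (38.4 CPM). Among the Low libraries, however, only the fibroblast markers Dcn and Dpt were highest in Male2. Col1a1, Col1a2, Col3a1, Lum and Pdgfra were highest in Female1, so the Low sum does not rank the libraries by fibroblast content unambiguously. The part of fibroblasts in Adh1 was not tested.

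Adh5, the formaldehyde-handling member, was at 46.9, 50.0, 53.6 and 48.5 CPM in the Low libraries (in the same order of animals, kept throughout) and at 28.4, 27.2, 26.8 and 27.0 in the High libraries. The fractions did not overlap, and the values within each were close together. The log2 fold change was −0.86 (SE 0.11, edgeR adjusted p 0.000198), and the difference within animals ran from −0.72 in Female1 to −0.995 in Male1.

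For Adh7 the Low libraries held 481, 866, 696 and 808 CPM and the High libraries 512, 1043, 747 and 1165. The fractions overlapped, and the animals kept much the same order in both, Female1 being lowest each time. High lay above Low in all 4 animals, by 0.09, 0.27, 0.10 and 0.53 on the log2 scale, and the fitted change was 0.28 with a 95% interval from −0.35 to 0.90 (SE 0.28, edgeR adjusted p 0.455). Without the High library of Female2 it was 0.06, and scaled by total counts only it was −0.33. Raw counts of Adh7 were lower in the High library of every animal, for example 13279 against 15568 in Female1.

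Ratios between members in a library do not depend on how libraries are scaled. The count of Adh1 was 0.00828 ± 0.00498 of that of Adh7 in Low and 0.0715 ± 0.0119 in High (SD, n = 4 each), and that of Adh7 was 14.3 ± 3.30 times that of Adh5 in Low and 31.8 ± 11.2 times in High. Both ratios were higher in each High library than in any Low library. Relative to each other, the 3 neighbours therefore changed unequally whatever the scaling.

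**Figure D1:**
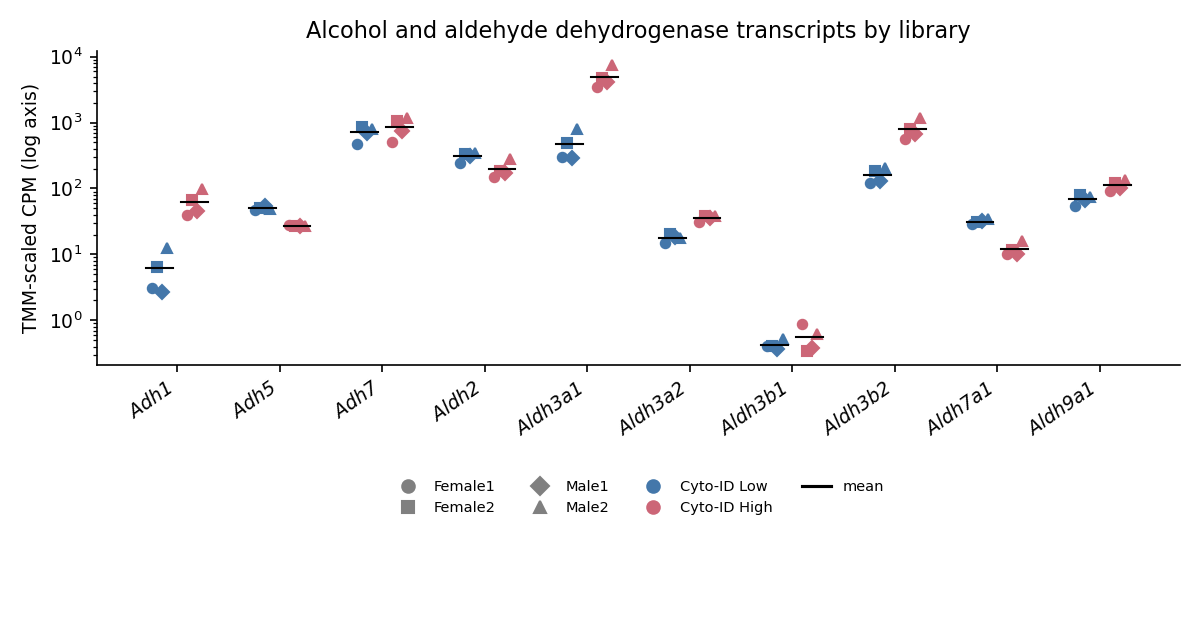
TMM-scaled CPM on a log axis for the 10 genes in each of the 8 libraries, blue for Cyto-ID Low and red for Cyto-ID High, with a symbol for each animal and a bar at the mean of 4. Aldh3a1, Adh1 and Aldh3b2 stand far higher in High, Adh5 and Aldh7a1 lower, and the fractions overlap for Adh7, Aldh2 and Aldh3b1.

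Among the aldehyde dehydrogenases of class 3, which act on medium- and long-chain aldehydes, 3 of 4 members rose, where 23.4% of all genes tested did. Aldh3a1 encodes the cytosolic enzyme that is abundant in the mouse cornea and acts on aldehydes from lipid peroxidation. It held 301, 492, 294 and 794 CPM in Low and 3451, 4811, 4141 and 7467 in High, with no overlap and with Male2 highest in both. Its log2 fold change was 3.40 (SE 0.37, edgeR adjusted p 6.16e-05), or 10.5-fold. The rise within animals ran from 3.23 in Male2 to 3.82 in Male1.

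Aldh3a2, the fatty aldehyde dehydrogenase of the endoplasmic reticulum, is the neighbour of Aldh3a1 on chromosome 11. The pair lies tail to tail, Aldh3a1 at 61207537 to 61218421 on the plus strand and Aldh3a2 at 61223417 to 61267464 on the minus strand, 5.00 kb apart. Aldh3a2 held 14.9, 20.5, 18.2 and 17.9 CPM in Low and 31.4, 37.9, 35.8 and 38.5 in High. Its log2 fold change was 1.00 (SE 0.14, edgeR adjusted p 0.000326), in a range of 0.88 to 1.10 over the animals. The ratio of Aldh3a1 to Aldh3a2 counts was 26.2 ± 12.6 in Low and 137 ± 38.9 in High (SD, n = 4 each), with no overlap. The coding sequences of the pair were identical at 57.2% of aligned positions, and they shared no stretch of 50 bases.

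Aldh3b1 and Aldh3b2 encode lipid-modified, membrane-bound enzymes that take long-chain fatty aldehydes, Aldh3b2 at lipid droplets. On chromosome 19 Aldh3b1 (3913491 to 3929808, minus strand) is followed by Aldh3b3 and, 0.22 kb after that gene, by Aldh3b2 (3972328 to 3981646), both on the plus strand. Aldh3b2 held 122, 186, 132 and 206.5 CPM in Low and 564, 789, 661 and 1171 in High. It rose 4.88-fold, or by 2.29 in log2 units (SE 0.27, edgeR adjusted p 9.35e-05), with no overlap of the fractions.

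Aldh3b1 was near the limit of detection, with 13, 15, 12 and 17 counts in Low and 23, 8, 10 and 12 in High. Its fitted change of 0.39 (SE 0.42, edgeR adjusted p 0.489) had a 95% interval from −0.55 to 1.32, so a rise as large as that of Aldh3b2 lies outside it. Scaled by total counts only it was −0.16, and without both libraries of Female1, whose High library had the most counts, it was −0.02. The coding sequences of Aldh3b2 and Aldh3b3 were identical at 90.1% of aligned positions, and 23.5% of the 50-base windows of Aldh3b2 transcripts also occur in Aldh3b3. For Aldh3b1, 8.17% of the windows also occur in other genes of the family, most of them in Aldh3b3. How the counting treated reads from shared windows is not given in the sources used here, and the counts of all 3 neighbours are uncertain. Aldh3b3 had 7.37 ± 1.43 CPM in Low and 32.6 ± 10.9 in High (SD, n = 4 each), less than Aldh3b2 in each, and changed by 2.13 (SE 0.25, edgeR adjusted p 9.24e-05).

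**Figure D2:**
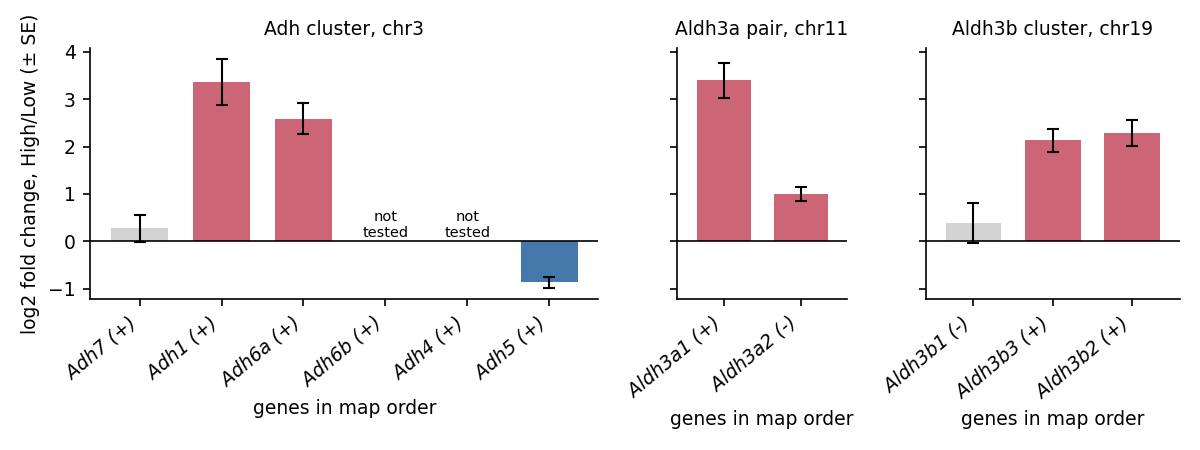
Log2 fold change of Cyto-ID High over Low with its standard error, for the genes of 3 family clusters in their order on the chromosome (strand in brackets), in red where higher and blue where lower past the threshold and grey where not. In the Adh cluster Adh1 and Adh6a are higher, Adh5 is lower, and Adh7 did not pass.

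The remaining aldehyde dehydrogenases each have their own metabolic role, and they went in both directions. Aldh2, the mitochondrial enzyme that removes most acetaldehyde made from ethanol, is on chromosome 5 (121566027 to 121593824, minus strand). It held 245, 328, 313 and 350 CPM in Low and 147, 184, 171 and 283 in High. Each animal was lower in High, but the High library of Male2 lay above the Low library of Female1. The change was −0.67 (SE 0.20, edgeR adjusted p 0.0191). The call was lost without the High library of Female1 (log2 fold change −0.58, adjusted p 0.0589), without the High library of Male1 (−0.56, 0.0537) and without both libraries of Male1 (−0.63, 0.0505). The adjusted p lay in a range of 0.000132 to 0.0589 over all alternatives.

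Aldh7a1, known as antiquitin and needed for the breakdown of lysine, fell 2.63-fold. It held 28.7, 30.5, 32.1 and 34.6 CPM in Low and 10.3, 11.7, 10.1 and 15.8 in High, with no overlap. The change was −1.40 (SE 0.16, edgeR adjusted p 9.05e-05). Exons of Phax overlap 5.79% of its exon bases on the other strand, and those of AC162035.3 overlap 3.4%. Such overlaps also touch Adh1 (Gm16559, 6.09%), Adh7 (0610031O16Rik, 2.85%) and Aldh2 (Gm42879, 2.54%). Whether the counting used the strand is not given in the sources used here, and without it reads of these partners cannot be told apart.

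Aldh9a1, which makes the precursor of carnitine from trimethylaminobutyraldehyde, is on chromosome 1 (167349991 to 167368532, plus strand). It held 55.0, 79.5, 66.9 and 75.3 CPM in Low and 92.7, 121, 103 and 137 in High, where no High library reached down to the Low ones. The rise was 0.71 (SE 0.17, edgeR adjusted p 0.00673). Scaled by total counts only it was 0.13, with an adjusted p of 0.463.

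In all, 5 of the 10 genes were higher and 3 lower in Cyto-ID High at an adjusted p under 0.05, where 48.7% of the 17344 genes tested were called in either direction, 23.4% higher and 25.3% lower. Both fractions were free of overlap for 7 of the 10, against 48.6% of all genes. The median log2 fold change of the 10 was 0.55 beside −0.09 for all genes tested. A change of the scaling to total counts moved the median of all genes by −0.55 and left 4 higher and 3 lower. The same scaling gave log2 fold changes of 2.74 for Adh1, 2.80 for Aldh3a1, 1.69 for Aldh3b2, 0.43 for Aldh3a2, −1.42 for Adh5, −1.26 for Aldh2 and −1.98 for Aldh7a1, each still past the threshold. Over all genes it turned 4055 higher and 4385 lower into 2194 and 8514.

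Levels of different genes can be set side by side only per length, here as CPM per kb of all annotated exon bases. These lengths, 1942 bases for Aldh3a1 and 3787 for Adh7, count all annotated exons, whichever transcripts the cells express. In Low, Aldh3a1 (242 ± 121 CPM per kb) and Adh7 (188 ± 44.9) led, and their libraries overlapped. Before division by length Adh7 (713 ± 170 CPM) stood above Aldh3a1 (470 ± 234 CPM) in Low. Then came Aldh3b2 (75.4 ± 19.1) and Aldh2 (60.3 ± 8.86), which overlapped too, Aldh9a1 (20.4 ± 3.19), Adh5 (9.20 ± 0.532), Aldh7a1 (6.08 ± 0.479), Aldh3a2 (3.18 ± 0.411), Adh1 (2.76 ± 2.02), again overlapping with the one before, and Aldh3b1 (0.208 ± 0.0299) (SD, n = 4 each).

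In High, Aldh3a1 was alone at the top with 2558 ± 905 CPM per kb. Aldh3b2 (372 ± 124) and Adh7 (229 ± 77.7) followed with overlapping libraries, as did Aldh2 (38.3 ± 11.7), Aldh9a1 (33.5 ± 5.72) and Adh1 (28.0 ± 12.1), each overlapping the next. Aldh3a2 (6.39 ± 0.574), Adh5 (5.06 ± 0.131), Aldh7a1 (2.32 ± 0.513) and Aldh3b1 (0.273 ± 0.122) closed the order without overlap between neighbours (SD, n = 4 each). Adh1 thus went from the ninth place to the sixth, and Adh5 from the sixth to the eighth.

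Shares of the summed CPM per kb of the 10 genes do not depend on library scaling, but do depend on the exon lengths used. Aldh3a1 made up 36.8%, 37.3%, 30.4% and 49.0% in Low and 78.5%, 76.5%, 77.9% and 79.2% in High. The share of Adh7 was 31.6% ± 4.87 in Low and 7.01% ± 1.13 in High, and that of Aldh2 was 10.3% ± 1.82 and 1.18% ± 0.0734 (SD, n = 4 each). Aldh3b2 kept a similar share, 12.6% ± 0.819 and 11.4% ± 0.172.

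**Figure D3:**
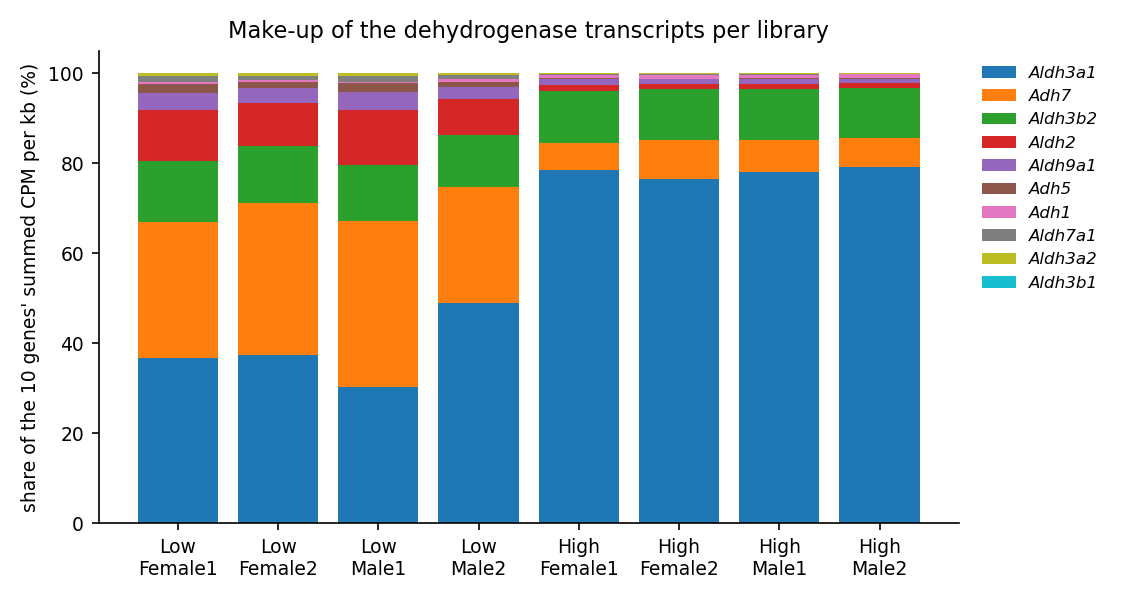
Share of each of the 10 genes in their summed CPM per kb of exon, stacked to 100% for each library. Aldh3a1 takes 30.4% to 49.0% in the 4 Low libraries and 76.5% to 79.2% in the 4 High libraries, where Adh7 is far smaller.

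The order of the libraries within a fraction was set beside the suprabasal markers. Among the Low libraries the suprabasal sum was highest in Male2 (26174 CPM), then Female2 (19969), Female1 (12932) and Male1 (8674), and Adh1 and Aldh3a1 had that same order, whereas Aldh3b2 was lowest in Female1 and Aldh3a2 highest in Female2. Among the High libraries Male2 (247810) and Female2 (190140) again led in the marker sum, while Female1 (148240) and Male1 (147490) were close to each other. Male2 and then Female2 also led there in all members but Adh5 and Aldh3b1, whether the member was higher, lower or not called between the fractions. Aldh3a1 and Adh1 were higher in Male1 than in Female1, against the order of the sum. After the fraction means were taken out, the correlation over the 8 libraries of log2 CPM was 0.989 between Aldh3a1 and Adh1 and 0.939 between Aldh3a1 and Aldh3b2. With Aldh3a1 the other members gave 0.805 (Aldh9a1), 0.793 (Aldh2), 0.737 (Adh7), 0.727 (Aldh7a1), 0.542 (Aldh3a2), 0.149 (Aldh3b1) and −0.345 (Adh5), so the order did not follow the direction of change. The libraries share animals and scaling factors, so these are descriptions. What part the share of suprabasal cells has in the difference between the fractions was not tested.

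**Figure D4:**
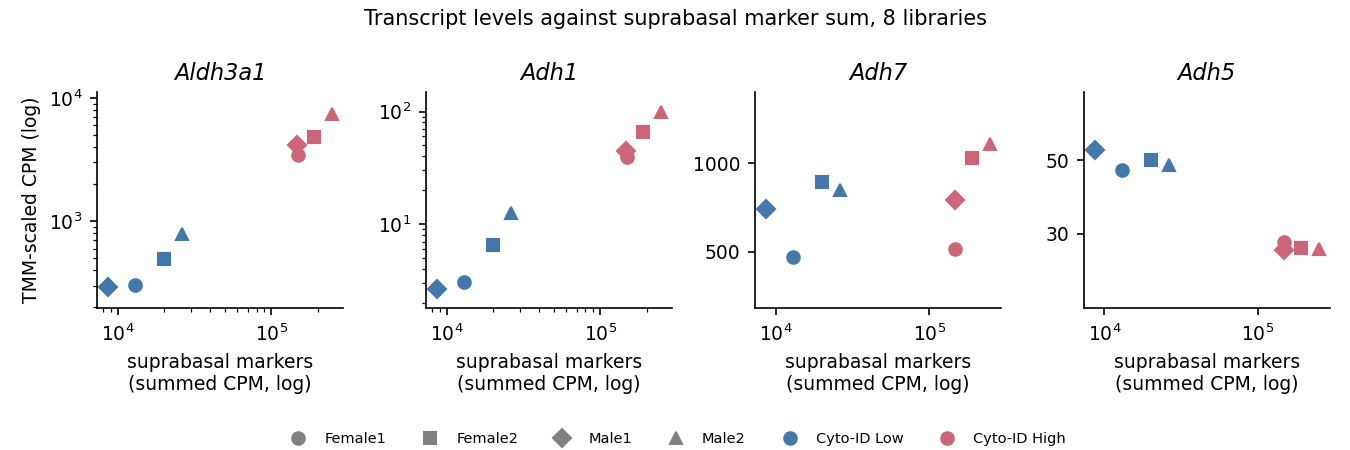
TMM-scaled CPM of Aldh3a1, Adh1, Adh7 and Adh5 against the summed CPM of 9 suprabasal markers, both on log axes, for 8 libraries coloured by fraction with a symbol for each animal. Aldh3a1 and Adh1 follow the order of the marker sum in the Low libraries and, apart from Female1 and Male1, in the High libraries, where Adh7 has the same order as they do. Adh5 is flat within each fraction.

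The genes most like Adh7 in log2 CPM over the 8 libraries, of 10006 compared, were Zmynd11 (Pearson r 0.984), Aptx (0.982) and Wdr41 (0.980), whose log2 fold changes between the fractions were 0.06, 0.06 and 0.25. Those most like Adh5 were Arhgap18 (0.999), Hmgb1-ps3 (0.999) and Eogt (0.998), and, as their choice by likeness to Adh5 fixes, all 3 were lower in High. Arhgap18 had a mean of 26.2 ± 2.80 CPM in Low against 6.48 ± 0.543 in High (SD, n = 4 each).

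Whether the change differed by sex was asked in a fit with the interaction of sex and fraction. By edgeR, 0 of the 10 genes passed, as did 0 of all 17344 genes (0% called). At an unadjusted p under 0.05 it was 0 of the 10 and 19 of all genes (0.110%). The smallest unadjusted p among the 10 was 0.58, with 2 animals of each sex. The estimates, as male minus female change, ran from −0.45 (SE 0.90) for Aldh3b1 to 0.30 (SE 0.54) for Aldh3b2.

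The other genes of the family also went in both directions. Of 14 other aldehyde dehydrogenase genes 12 were tested, 6 of them higher and 4 lower, with a median of 0.33, beside 23.4% higher, 25.3% lower and a median of −0.09 over all genes tested. Aldh1a7, a close relative of the retinal dehydrogenase Aldh1a1, rose from 38.1 ± 18.9 to 436 ± 102 CPM (SD, n = 4 each), by 3.52 (SE 0.36, edgeR adjusted p 4.96e-05), with 7.49% of its 50-base windows shared with Aldh1a1. Aldh1l2, the mitochondrial 10-formyltetrahydrofolate dehydrogenase, rose by 2.89 (SE 0.26). The mitochondrial Aldh1b1 fell by 1.71 on the log2 scale (SE 0.51), resting on 3 to 11 counts in High. Aldh1b1 passed the filter on low counts only through Low, where it was higher. Exons of D10Wsu102e overlap 14.1% of the exon bases of Aldh1l2 on the other strand. Scaled by total counts only, 5 of the 12 were higher and 5 lower. That scaling called 61.7% of all 17344 genes tested, 2194 higher and 8514 lower.

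Of the 4 other alcohol dehydrogenase genes 2 were tested. Adh6a, which lies next to Adh1, had 10, 20, 8 and 10 counts in Low and 60, 52, 57 and 33 in High. It rose by 2.59 (SE 0.32, edgeR adjusted p 0.000139), but passed the filter on low counts only through High, where it was higher. Adhfe1, a mitochondrial hydroxyacid transhydrogenase, had an edgeR adjusted p of 0.13. Adh4 had 0 counts in each library, and Adh6b had 3 to 13. Over all 28 listed alcohol and aldehyde dehydrogenase genes 24 were tested, 12 of them higher and 7 lower. Of all genes tested 23.4% were higher and 25.3% lower.

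Aldehydes are also reduced, by aldo-keto and carbonyl reductases. Of 15 such genes 11 were tested, with 3 higher, 3 lower and a median of −0.03. This is beside 23.4% higher, 25.3% lower and a median of −0.09 over all genes tested. The carbonyl reductase Cbr2 fell 12.4-fold, with 387 ± 151 CPM in Low and 33.5 ± 30.0 in High (SD, n = 4 each; edgeR adjusted p 0.000248). Its relatives Cbr3 and Cbr1 rose 2.82-fold (edgeR adjusted p 6.95e-05) and 2.10-fold (0.00214). Akr1c13 fell by 1.27 on the log2 scale (SE 0.41), at 5 to 38 counts a library. Akr1c13 passed the filter on low counts only through Low, where it was higher. Scaled by total counts only, 2 of the 11 were higher and 6 lower, where 2194 and 8514 of all 17344 genes tested were.

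Of 5 genes that oxidise ethanol by other routes or activate the acetate formed, 3 were tested. Acss2, the cytosolic and nuclear acetyl-CoA synthetase, rose from 12.1 ± 5.29 to 137 ± 27.8 CPM (SD, n = 4 each), by 3.50 (SE 0.34, edgeR adjusted p 3.58e-05), and the mitochondrial Acss1 rose by 1.41 (SE 0.31). Catalase (Cat) was at 151 ± 31.6 and 108 ± 30.7 CPM with an adjusted p of 0.113 (0.0112 with the animal as a block), and Cyp2e1, the microsomal ethanol oxidase, had at most 4 counts in a library.

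Among 9 genes that supply or take up what the members handle, 7 were tested, of which 3 were higher and 1 lower. Over all genes tested 23.4% were higher and 25.3% lower. Scaled by total counts only, 1 of the 7 was higher and 2 lower, where 2194 and 8514 of all 17344 genes were. Sgpl1, the lyase that releases the fatty aldehyde taken by Aldh3a2, rose from 50.2 ± 2.40 to 121 ± 10.5 CPM (SD, n = 4 each), by 1.27 (SE 0.13, edgeR adjusted p 4.14e-05). Chdh, which makes betaine aldehyde from choline, fell by 0.95 on the log2 scale (SE 0.20). The aldose reductase Akr1b3, which is also among the reductases above, was higher by 0.79 (SE 0.15), but by 0.22 with total-count scaling (adjusted p 0.237). Esd, the hydrolase that follows Adh5 in formaldehyde oxidation, was higher by 0.51 (SE 0.14, edgeR adjusted p 0.0134) where Adh5 was lower, and under total-count scaling it turned to −0.05 (adjusted p 0.72).

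**Figure D5:**
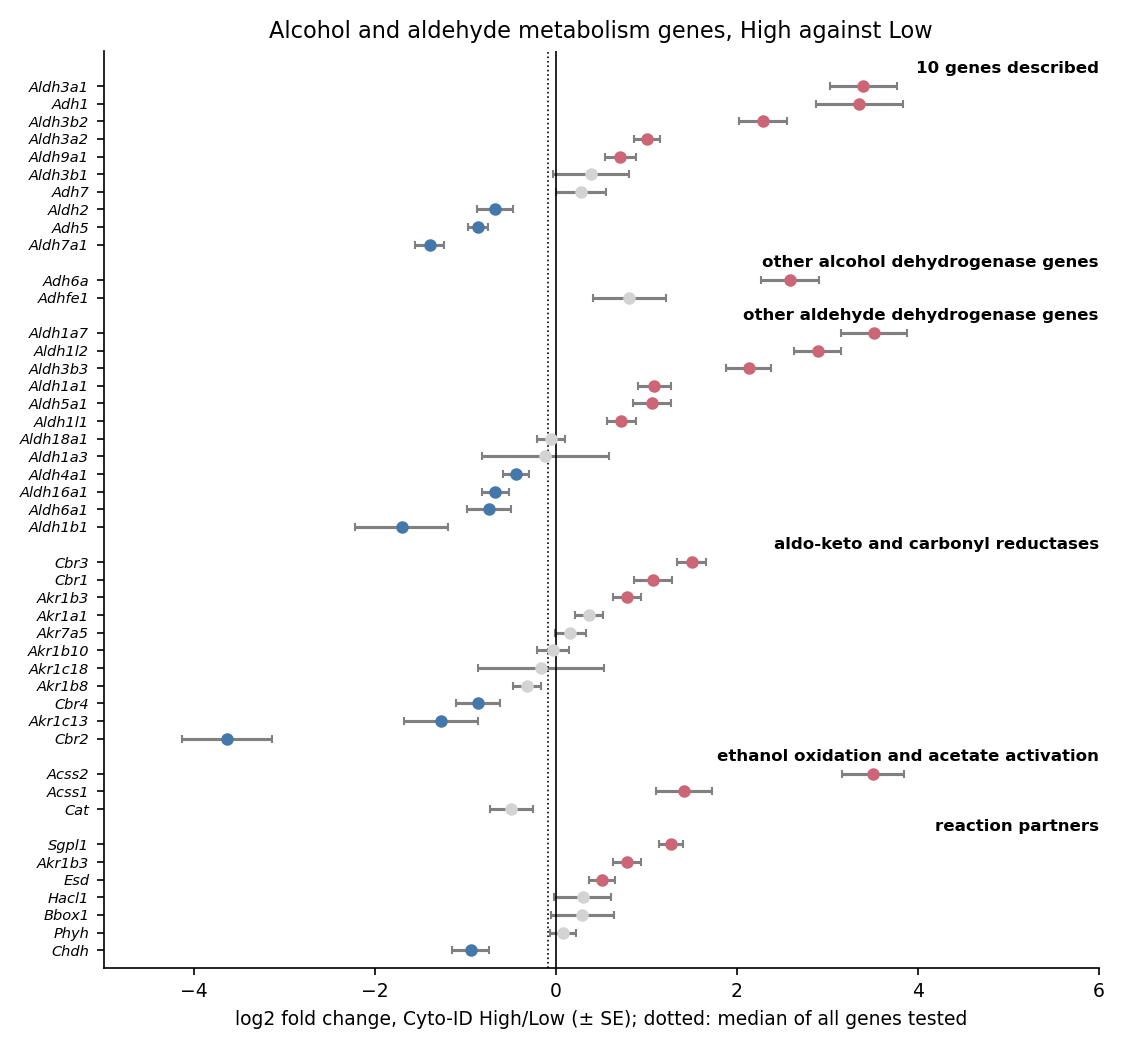
Log2 fold change of Cyto-ID High over Low with its standard error for the 10 genes and for the tested genes of 5 lists of alcohol and aldehyde metabolism, red where higher and blue where lower past the threshold and grey where not. The dotted line is the median of all genes tested, −0.09, and each of the lists with over 3 tested genes has members on both sides of 0.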

How the data were processed

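Raw RNA-seq counts of 55276 gene symbols in 8 libraries (4 animals, both fractions of each) were used as the authors deposited them. The submitters' processing notes name STAR 2.7.3, DESeq2 and GRCm38; the counting program and its strand setting are not given in the sources used here. The labels name the animals. The p-values come from a fit without the animal and measure the spread between libraries of a fraction and sex.

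All genes were fitted with edgeR 4.0.16 (R 4.3.3; TMM scaling, filterByExpr by fraction, sex as covariate), which left 17344 genes, and p-values were adjusted over all of them by Benjamini-Hochberg with a threshold of 0.05. Log2 CPM used a prior count of 2. The fit was tested on simulated data. Per-library depth was 26285150 to 29301054 counts, and no pair of libraries of a fraction agreed within sampling noise (chi-square per degree of freedom at least 12.1). Intervals cover the spread between libraries. Loci and exon lengths came from GENCODE M21 (GRCm38), promoters from RefSeq (6 of 10 members matched).

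Both libraries of an animal are paired. Their deviations from the fraction means correlated at 0.433, 0.316, −0.0161 and 0.277 (Female1, Female2, Male1, Male2), and those of different animals at −0.372 to 0.35. Alternatives were other scalings (RLE size factors, total counts), filters, a robust fit, DESeq2 1.42.0, limma-voom 3.58.1, no covariate, the animal as a block, and leaving out libraries or animals.

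The members, lists and markers were chosen with earlier results of these data known, and the promoter motifs after the promoters had been read. Named were all members, up to 4 called genes of each list by size of change, cluster neighbours, and the 3 genes most correlated with Adh7 and with Adh5 among genes of at least 5 CPM on average. Adhfe1, Cat and Cyp2e1, and the genes under other observations, were named after their values were seen. Of the 9 reaction partners 8 were in the table, and the other is not analysed here.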

Additional observations from a re-analysis of the deposited data

Results flagged for a closer look

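The summed level of gastric epithelium markers in Female2 stood apart in both fractions. In Cyto-ID Low it was 19.135 CPM against 0.772 in the nearest of the other libraries, and in Cyto-ID High 115.85 against 1.44. These were 2 of 34 groups of 4 libraries examined for an extreme library, where chance gives about 1 in 20. Stomach expresses Adh7 as well, and its part in the level of Adh7 in Female2 was not tested. Without both libraries of Female2 the log2 fold change of Adh7 was 0.28 (edgeR adjusted p 0.312), that of Aldh3a1 was 3.45 (adjusted p 0.0022), and 8 members were called.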

How the results depend on the processing

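Over 21 alternatives 7 to 8 of the 10 genes were called, 7 with total-count scaling and without the High library of Female1, the High library of Male1 or both libraries of Male1. The share of all genes called also moved with these settings. It was 48.7% in the main fit, 25% with no filter on low counts and 37.7% without both libraries of Male1. It was 58% where at least 10 counts in every library were asked for and 61.7% with total counts. Direction and call were kept in each alternative by 6 of the 10. Aldh2 and Aldh9a1 lost their calls as given in the report. The change of Adh7 turned to −0.33 with total counts, and that of Aldh3b1 to −0.16 with total counts and to −0.023 without both libraries of Female1; neither passed in any alternative, and the cause was not tested. With the replicate block (the animal in place of sex) 8 members were called and no call of a member changed. Among the other alcohol dehydrogenase genes 0 were called where at least 10 counts in every library were asked for, since that filter leaves out Adh6a. The counts of called genes ran from 7 to 11 for other aldehyde dehydrogenases, 4 to 8 for reductases, 2 to 3 for ethanol and acetate genes and 3 to 4 for reaction partners. Depth limits Aldh3b1, Adh6b and Cyp2e1, at 23 counts or fewer per library.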

Other observations

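The retinaldehyde dehydrogenase Aldh1a3, which forms retinoic acid, and the reductase Akr1c18 were singled out after their values were seen, because their counts varied widely among the High libraries. Aldh1a3 had 487, 406, 254 and 239 counts in the Low libraries of Female1, Female2, Male1 and Male2, and 488, 157, 332 and 4 in their High libraries. Akr1c18 had 69, 48, 37 and 36 counts in Low and 68, 28, 39 and 0 in High, where a count of 0 allows up to 3. The summed CPM of fibroblast (463, 149, 329 and 38.4), endothelial (25.5, 8.10, 15.5 and 1.44), muscle (51.2, 17.4, 35.5 and 4.99) and leukocyte markers (94.5, 37.8, 69.3 and 24.3) in High had that same order of animals, and the part of these cells in the counts was not tested. Neither gene passed between the fractions (edgeR adjusted p 0.915 and 0.875).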
